A study of Rattus norvegicus with 12 samples.

Results

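The genes followed here, 10 in number, lie in the mitochondrial genome and encode subunits of the respiratory chain. They were measured across 12 RNA libraries from rat prefrontal cortex. They were chosen by a fixed list of gene identifiers, each paired in that list with a symbol, because the files give identifiers alone. All 10 were found, as 10 of 43206 genes and 13 of 78025 transcript rows, and the list of identifiers, not a measured value, defines them. The groups were acupuncture (4 libraries), HIBD model, in which HIBD stands for hypoxic-ischemic brain damage (4 libraries), and normal (4 libraries). All 12 libraries came from SD rats at postnatal day 28 and carry no genotype or allele in their labels. Group labels for acupuncture name only that treatment, and the series title places it in rats with the damage. Neither the way the damage was made, nor the acupuncture schedule, nor what the normal group underwent is stated in the sources used here. Each library has its own number, used here as its replicate number. Nothing in the labels says that a number is 1 animal, so a p-value speaks only of how far these libraries differ among themselves. In bulk tissue, fewer cells of a type and less RNA per cell cannot be told apart.

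The mitochondrial genome encodes a small part of the respiratory chain, and the nucleus encodes the rest. Long transcripts of both of its strands are cut into separate RNAs, and the proteins made from them sit in the inner membrane, where they move electrons and protons. Complex I takes electrons from NADH, complex III passes them to cytochrome c, complex IV hands them to oxygen, and complex V uses the proton gradient to make ATP. Grey matter of the brain draws most of its ATP from this chain, and lack of oxygen stops it at complex IV.

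Complex I is represented by Mt-nd1 (ENSRNOG00000030644), Mt-nd2 (ENSRNOG00000031033), Mt-nd4 (ENSRNOG00000029707), Mt-nd5 (ENSRNOG00000029971) and Mt-nd6 (ENSRNOG00000029042), all subunits of its membrane arm. Complex III is represented by Mt-cyb (ENSRNOG00000031766), the cytochrome b, whose bound haems pass electrons within the membrane. Complex IV is represented by Mt-co1 (ENSRNOG00000034234), which holds the site of oxygen reduction, Mt-co2 (ENSRNOG00000030371), which takes electrons from cytochrome c, and Mt-co3 (ENSRNOG00000030700), another core subunit. Complex V is represented by Mt-atp6 (ENSRNOG00000031979), part of the proton channel of ATP synthase. The files give no coordinates for these genes, and no mitochondrial sequence was used here.

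Libraries had total estimated counts of 714904584 (acupuncture replicate 5) to 1090316733 (HIBD model replicate 18). These are the deposited counts, which equal FPKM times a row factor, fixed over libraries, and a library factor. FPKM, a level per transcript length and library size, serves here to compare genes within a library. Levels of 1 gene across libraries are given as TMM-scaled CPM (estimated counts set against the library total after TMM adjustment), the scale of the test. What 1 unit is worth in reads is unknown, so no counting interval is given. The tissue label could not be checked against marker genes, since no symbol could be matched to an identifier.

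Row factors give a check of the symbols. Relative to the row of Mt-co1, the factor was 1.18 for the annotated row of Mt-nd5, 0.942 for Mt-nd4, 0.74 for Mt-cyb and 0.672 for Mt-nd2. It was 0.618 for Mt-nd1, 0.532 for Mt-co3, 0.442 for Mt-co2, 0.44 for Mt-atp6 and 0.425 for the annotated row of Mt-nd6. This order is that of the known lengths of the mammalian genes, from Mt-nd5 as the longest to Mt-nd6 as the shortest, with the factors of Mt-nd4, Mt-co3 and Mt-nd6 resting on small rounded values. Over 12003 rows above 2000 in every library, the median factor was 26.8 times that of Mt-co1. A factor is therefore not read as a length outside these annotated rows.

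Mt-nd5 and Mt-nd6 also hold rows that a transcript assembler made. The annotated row of Mt-nd6 had an estimated count of 3 in all 12 libraries, while its assembled row had 119308 to 204243 and so carried nearly all of that gene. The factor of that row was 7.38 times that of Mt-co1, far above that of any annotated member. Mt-nd6 is encoded on the opposite strand to most of these genes, and the strand setting of the libraries is not given. Reads of Mt-nd6 and of mitochondrial genes on the other strand therefore cannot be told apart here. For Mt-nd5, the annotated row had 52909 to 110456 and 1 assembled row 7724 to 27589, and a second assembled row was listed at 0 in 11 libraries and had 13995 in normal replicate 13. Nuclear copies of mitochondrial sequence can also share reads with all of these genes.

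Mt-co1 stood far above the other members in every library. It averaged 9034 ± 997 FPKM (SD, n = 12) and ranked 6 among all genes by mean FPKM. Mt-co2 averaged 2407 ± 751 FPKM and ranked 12, and Mt-cyb averaged 1171 ± 348 FPKM and ranked 19. Complex I subunits lay lower, with 847 ± 274 FPKM for Mt-nd1, 732 ± 178 FPKM for Mt-nd5 and 599 ± 258 FPKM for Mt-nd2. Mt-atp6 averaged 392 ± 200.3 FPKM and Mt-nd6 231 ± 31 FPKM. These 8 genes, each with a mean of at least 100 FPKM, are called the abundant members below, a bound set after the levels were seen.

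Mt-co3 and Mt-nd4 were close to the floor of the table. Mt-co3 had estimated counts of 9 to 16 and 0.169 to 0.291 FPKM, and Mt-nd4 had estimated counts of 7 to 9 and 0.074 to 0.102 FPKM. They ranked 22359 and 27223 by mean FPKM, while the other members of complexes IV and I stood among the 155 genes of highest mean FPKM. In every library Mt-nd6, the lowest abundant member, exceeded Mt-co3 by at least 701-fold in FPKM. The cause was not tested, and no fold change between groups is given for these 2 genes.

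**Figure D1:**
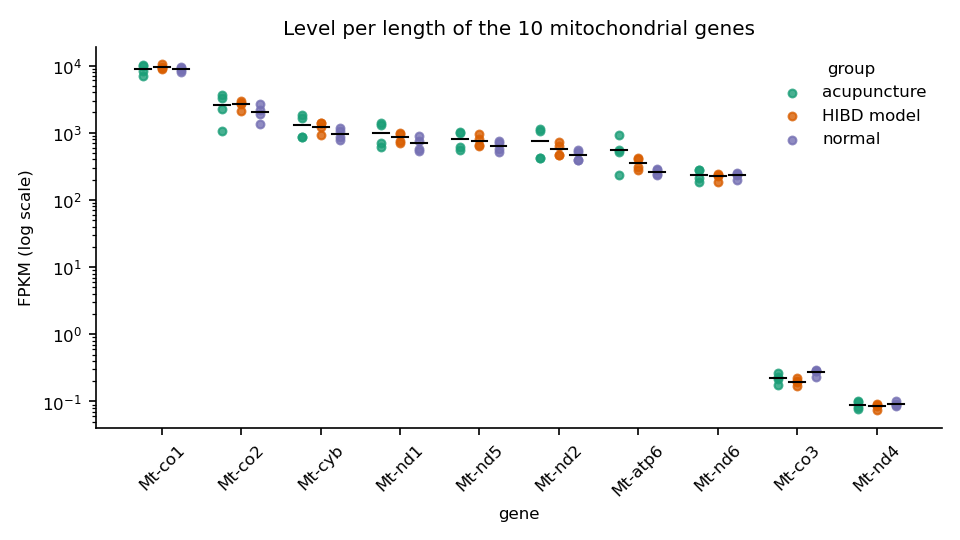
FPKM of the 10 genes on a log scale, by gene along the horizontal axis, with 1 point per library, coloured by group, and a black line at each group's mean (n = 4). Mt-co1 lies highest at 6916 to 10422 FPKM, 7 more genes lie at 184 FPKM or higher, and Mt-co3 and Mt-nd4 lie below 0.3 FPKM in all 12 libraries.

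The order of levels held closely within libraries. Mt-co1, Mt-co2, Mt-cyb, Mt-nd1 and Mt-nd5 followed each other in that order in 12 of 12 libraries. Mt-nd5 exceeded Mt-nd2 in 10, Mt-nd2 exceeded Mt-atp6 in 11, and Mt-atp6 exceeded Mt-nd6 in 11 of 12 libraries. Over all libraries, only the ranges of Mt-co1 and Mt-co2, of Mt-nd6 and Mt-co3, and of Mt-co3 and Mt-nd4 were apart among neighbours, while other neighbours overlapped in range. Mt-co1 exceeded Mt-co2 by 2.85-fold to 6.45-fold.

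The members' share of all FPKM averaged 3.68 ± 0.823% in acupuncture, 3.83 ± 0.625% in HIBD model and 3.31 ± 0.365% in normal libraries (SD, n = 4 each). In the estimated counts, which weight each row by its factor, they held 0.154 ± 0.0431%, 0.159 ± 0.0156% and 0.133 ± 0.0107% in acupuncture, HIBD model and normal libraries. These differences between groups were smaller than the SD of the acupuncture group, the widest, on both scales. Between HIBD model and normal libraries, the difference in estimated counts exceeded the SD of both groups. Their ranges overlapped, at 0.141 to 0.177% in HIBD model and 0.12 to 0.146% in normal libraries. On FPKM, that difference exceeded the SD of the normal group but not that of the HIBD model group. Within the members, Mt-co1 held 56 ± 5.82% of the FPKM in acupuncture, 59 ± 3.13% in HIBD model and 62.7 ± 2.02% in normal libraries.

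Mt-nd1 had 85.3, 91.7, 44.9 and 37.4 TMM-scaled CPM in acupuncture replicates 5, 22, 35 and 55. It had 39.7, 68, 66.9 and 43.6 in HIBD model replicates 2, 8, 16 and 18. Normal replicates 8, 10, 11 and 13 had 45.8, 30.9, 54.3 and 32. Acupuncture replicates 5 and 22 lay above all other libraries, while replicates 35 and 55 lay inside the range of the normal group.

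Mt-nd2 followed the same libraries more steeply. Levels were 82.2, 76.9, 28.9 and 28 TMM-scaled CPM in acupuncture replicates 5, 22, 35 and 55, and 29, 53.6, 47.5 and 28.9 in HIBD model replicates 2, 8, 16 and 18. Normal replicates 8, 10, 11 and 13 had 35.5, 25.5, 33.9 and 24.4. The acupuncture group was split, with a pair of libraries above and a pair within the normal range.

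Mt-nd5 had 151, 149, 85.4 and 71.7 TMM-scaled CPM in acupuncture replicates 5, 22, 35 and 55, against 77.9, 139, 122 and 83.5 in HIBD model replicates 2, 8, 16 and 18. In normal replicates 8, 10, 11 and 13 it had 95.1, 65.5, 92 and 76.9. Mt-nd6 spread less, with 216, 220.3, 142 and 157 in the acupuncture libraries and 126, 199.8, 195 and 158 in the HIBD model libraries, in the same order. Both genes were highest in acupuncture replicates 5 and 22 and next highest in HIBD model replicates 8 and 16. Normal replicates 8, 10, 11 and 13 had 179, 139, 166 and 163 for Mt-nd6, inside the range of the HIBD model group.

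Mt-cyb, the complex III subunit, had 131, 147, 66.1 and 63.7 TMM-scaled CPM in acupuncture replicates 5, 22, 35 and 55. HIBD model replicates 2, 8, 16 and 18 had 64.3, 113, 116 and 83.5, and normal replicates 8, 10, 11 and 13 had 83.9, 53.9, 76.4 and 58.2. As with the complex I genes, 2 acupuncture and 2 HIBD model libraries lay above the normal range.

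Of the 8 abundant members, Mt-co1 had the smallest within-group SD of log2 CPM (0.22). It had 1026, 1101, 718 and 824 TMM-scaled CPM in acupuncture replicates 5, 22, 35 and 55, and 818, 1143, 1025 and 903 in HIBD model replicates 2, 8, 16 and 18. Normal replicates 8, 10, 11 and 13 had 936, 765, 817 and 839. Acupuncture replicate 35 was the lowest library for this gene and HIBD model replicate 8 the highest.

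Mt-co2 had 157, 171, 49.3 and 97.9 TMM-scaled CPM in acupuncture replicates 5, 22, 35 and 55. It had 86.3, 135, 147 and 112 in HIBD model replicates 2, 8, 16 and 18, against 115, 81.1, 57.4 and 87 in normal replicates 8, 10, 11 and 13. In acupuncture replicate 35 and normal replicate 11, this gene stood lower against its own mean over 12 libraries than any other abundant member did.

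Mt-atp6 had 24, 26, 10.6 and 40.7 TMM-scaled CPM in acupuncture replicates 5, 22, 35 and 55. HIBD model replicates 2, 8, 16 and 18 had 11.5, 20.2, 20.4 and 12.8, against 12, 10.3, 12.4 and 9.42 in normal replicates 8, 10, 11 and 13. The highest value was in acupuncture replicate 55, a library that lay below the mean over 12 libraries for the 7 other abundant members.

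**Figure D2:**
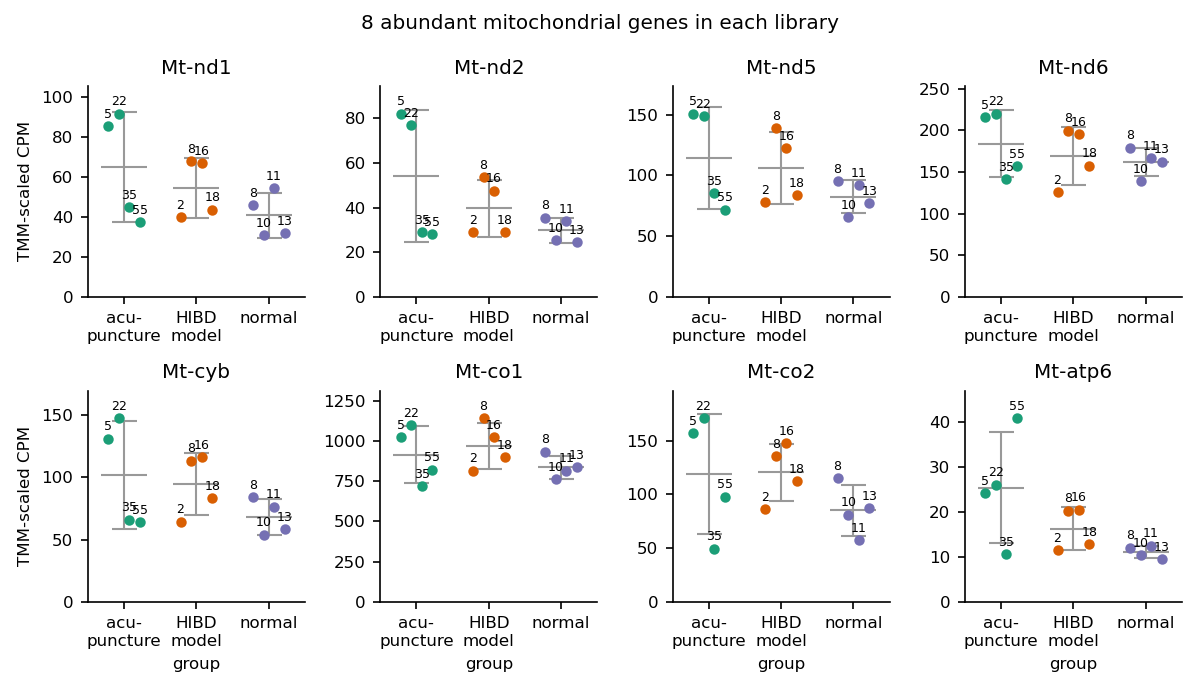
TMM-scaled CPM (vertical axes, from 0) of the 8 abundant genes in each library, by group along the horizontal axis; points carry the replicate number, and grey marks show the group mean and SD (n = 4). For most genes acupuncture replicates 5 and 22 lie highest and the groups overlap, and for Mt-atp6 acupuncture replicate 55 lies highest at 40.7.

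Acupuncture against HIBD model, HIBD model against normal and acupuncture against normal were tested in 1 edgeR quasi-likelihood fit over 27885 genes. Mt-nd4 did not pass the filter on low values, so 9 members were tested, all of which except Mt-co3 were abundant. Groups of all 9 tested members overlapped in TMM-scaled CPM in every comparison. Over all genes tested, groups did not overlap on that scale for 11.5% between HIBD model and normal. It was 2.27% between acupuncture and HIBD model and 17.6% between acupuncture and normal. On FPKM, Mt-co3, close to the floor, had 0.169 to 0.223 in HIBD model and 0.234 to 0.291 in normal libraries, without overlap. These values rest on estimated counts of 9 to 12 in HIBD model and 11 to 16 in normal libraries, which overlap. The share of all genes without overlap on FPKM was not computed, so no difference is read from these values.

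Between HIBD model and normal libraries, the comparison that bears on the injury, none of the 9 members passed. All 8 abundant members had a higher mean in the HIBD model group on the scale of the test, and 7 of 8 on FPKM. The 2 groups overlapped for each of these members on both scales. At an adjusted p under 0.05 (edgeR quasi-likelihood test), 0 of 9 members were called, where 0.0968% of all genes were. At an unadjusted p under 0.05 it was 0 of 9 members, where 22.4% of all genes lay. DESeq2 called 0 of 9 members and 13.5% of all genes, and limma-voom called 0 of 9 members and 0.0179% of all genes. Mt-atp6, the proton channel subunit, averaged 16.2 ± 4.75 TMM-scaled CPM in HIBD model and 11 ± 1.41 in normal libraries (SD, n = 4 each). The edgeR log2 fold change was 0.56 ± 0.34 (SE) with an adjusted p = 0.378. Mt-co2 averaged 120.3 ± 27 in HIBD model and 85.1 ± 23.6 in normal libraries, with an edgeR log2 fold change of 0.50 ± 0.35 (SE) and an adjusted p = 0.454. Mt-cyb averaged 94.4 ± 25 in HIBD model and 68.1 ± 14.3 in normal libraries, with an edgeR log2 fold change of 0.47 ± 0.31 (SE) and an adjusted p = 0.409. For Mt-co1, the catalytic core of complex IV, the means were 972 ± 142 and 839 ± 71.7 TMM-scaled CPM in HIBD model and normal libraries, a log2 fold change of 0.21 with a 95% interval of -0.12 to 0.54.

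Complex I subunits gave log2 fold changes of 0.42 (SE 0.32) for Mt-nd1, 0.41 (SE 0.38) for Mt-nd2 and 0.36 (SE 0.27) for Mt-nd5 between HIBD model and normal libraries. Mt-nd6 had a log2 fold change of 0.07 (SE 0.18), which was -0.049 on FPKM. Over the 8 abundant members the median log2 fold change was 0.42, beside -0.08 over the 13725 Ensembl genes whose log2 CPM averaged 0 or more. Of those genes 35.8% were higher in the HIBD model group. Over all 27885 genes tested, the median log2 fold change was 0.01. The members share libraries and vary together, so 8 of 8 in one direction is not 8 independent observations.

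Between acupuncture and HIBD model libraries, the comparison that bears on the treatment, fold changes were small for most members. At an adjusted p under 0.05 (edgeR quasi-likelihood test) 0 of 9 members were called, and 0% of all genes were. At an unadjusted p under 0.05 it was 0 of 9, where 5.31% of all genes lay. DESeq2 called 0 of 9 members and 0.68% of all genes, and limma-voom called 0 of 9 members and 0% of all genes. Mt-atp6 averaged 25.3 ± 12.3 TMM-scaled CPM in acupuncture and 16.2 ± 4.75 in HIBD model libraries (SD, n = 4 each), with an edgeR log2 fold change of 0.64 ± 0.34 (SE) and an adjusted p = 0.974. Mt-nd2 averaged 54 ± 29.6 in acupuncture and 39.7 ± 12.7 in HIBD model libraries, a log2 fold change of 0.44 with a 95% interval of -0.39 to 1.28. Mt-co1 averaged 917 ± 177 in acupuncture and 972 ± 142 in HIBD model libraries, a log2 fold change of -0.08 with a 95% interval of -0.41 to 0.24. Mt-co2 had a log2 fold change of -0.02, and Mt-nd1, Mt-nd5, Mt-nd6 and Mt-cyb had 0.25, 0.11, 0.11 and 0.11. Of the 8 abundant members, 6 were higher in acupuncture, with a median of 0.11, beside a median of 0.01 and 53.2% higher over the 13725 genes. Over all 27885 genes tested the median was -0.002. Without acupuncture replicate 55 the value of Mt-atp6 was 0.32, and without replicate 35 it was 0.90. That of Mt-nd2 was 0.16 without acupuncture replicate 5 and 0.22 without replicate 22. The count of members higher in acupuncture was 3 without HIBD model replicate 2, and 8 without acupuncture replicate 35 or HIBD model replicate 8.

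Between acupuncture and normal libraries, the comparison of the treated with the normal group, Mt-atp6 and Mt-nd2 had the largest differences of the members, and neither passed. At an adjusted p under 0.05 (edgeR quasi-likelihood test) 0 of 9 members were called, where 0.0825% of all genes were. At an unadjusted p under 0.05 it was 2 of 9, a share close to the 24.5% of all genes. Acupuncture libraries averaged 25.3 ± 12.3 TMM-scaled CPM of Mt-atp6 and normal libraries 11 ± 1.41 (SD, n = 4 each). The edgeR log2 fold change was 1.20, with SE 0.34, a 95% interval of 0.44 to 1.96 and an adjusted p = 0.106. In all, 3 acupuncture libraries lay above the highest normal library and replicate 35 lay within the normal range. Without acupuncture replicate 55 the log2 fold change was 0.87 (edgeR adjusted p = 0.14), and over all alternatives the adjusted p lay between 0.00807 and 0.265. The lowest of these was from DESeq2, which called Mt-atp6 (log2 fold change 1.21) as 1 of 9 members and 15.5% of all genes, so its member count is near its background. Limma-voom called 0 of 9 members and 0.0323% of all genes.

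Mt-nd2 averaged 54 ± 29.6 TMM-scaled CPM in acupuncture and 29.8 ± 5.69 in normal libraries, with an edgeR log2 fold change of 0.86 ± 0.38 (SE) and an adjusted p = 0.196. It was 0.58 without acupuncture replicate 5 and 0.64 without acupuncture replicate 22. Mt-nd1 averaged 64.9 ± 27.6 in acupuncture and 40.8 ± 11.3 in normal libraries, with an edgeR log2 fold change of 0.67 ± 0.32 (SE) and an adjusted p = 0.231. Mt-cyb averaged 102 ± 43.5 and 68.1 ± 14.3 in acupuncture and normal libraries, with an edgeR log2 fold change of 0.58 ± 0.31 (SE) and an adjusted p = 0.267. In all of these genes 2 acupuncture libraries lay above the normal range and 2 did not. Mt-co2, Mt-nd5, Mt-nd6 and Mt-co1 had log2 fold changes of 0.48, 0.47, 0.18 and 0.13, and that of Mt-co1 was -0.023 on FPKM. All 8 abundant members were higher in acupuncture, and 7 of 8 on FPKM, with a median of 0.53, beside -0.08 and 38.3% higher over the 13725 genes. Over all 27885 genes tested the median was 0.02. Acupuncture and HIBD model were set against the same 4 normal libraries, so these values are not independent of those between HIBD model and normal.

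**Figure D3:**
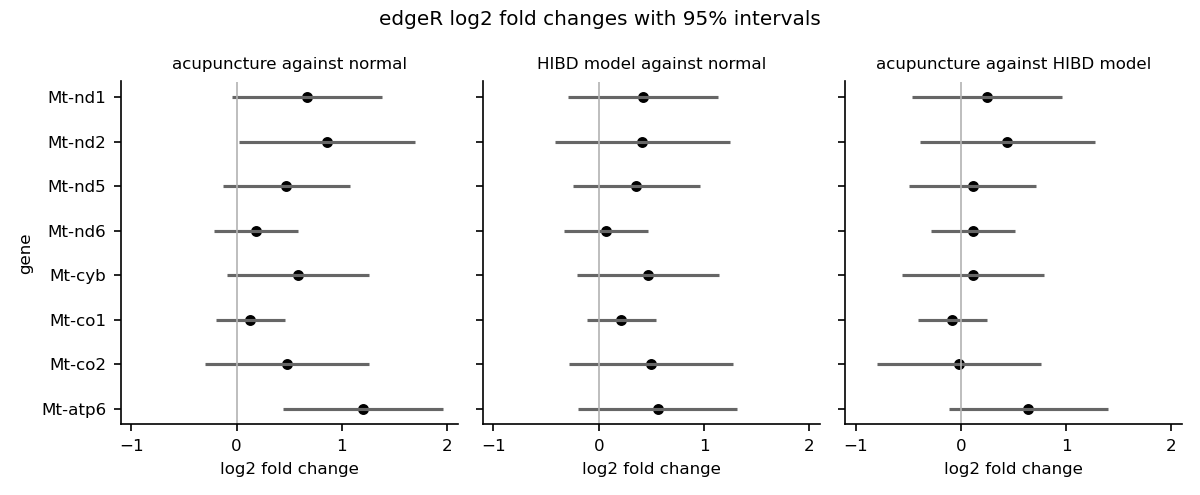
Log2 fold changes of the 8 abundant genes (points) with 95% intervals (lines) from the edgeR fit, for acupuncture against normal, HIBD model against normal and acupuncture against HIBD model (positive means higher in the group named first). Only Mt-nd2 and Mt-atp6 between acupuncture and normal have intervals that leave out 0, and neither passed an adjusted p of 0.05.

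The members also varied together across the 12 libraries. Relative to its mean over 12 libraries, the median abundant member stood at 0.55, 0.61, -0.38 and -0.31 on the log2 scale in acupuncture replicates 5, 22, 35 and 55. It stood at -0.44, 0.34, 0.25 and -0.20 in HIBD model replicates 2, 8, 16 and 18, and at -0.08, -0.66, -0.18 and -0.49 in normal replicates 8, 10, 11 and 13. Acupuncture replicate 22 was among the 2 highest libraries for 8 of 8 abundant members and acupuncture replicate 5 for 6 of 8, and normal replicate 10 was among the 3 lowest for 8 of 8. The 4 libraries highest in the members, acupuncture replicates 5 and 22 and HIBD model replicates 8 and 16, had total estimated counts of 714904584, 946836660, 897597900 and 899545516, and the other 8 libraries had 890562476 to 1090316733. Loci named by the assembler took 2.24, 2.19, 2.02 and 2.35% of the estimated counts in those 4 libraries and at most 1.79% in any other library. The part of depth or of these loci in the pattern was not tested.

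**Figure D4:**
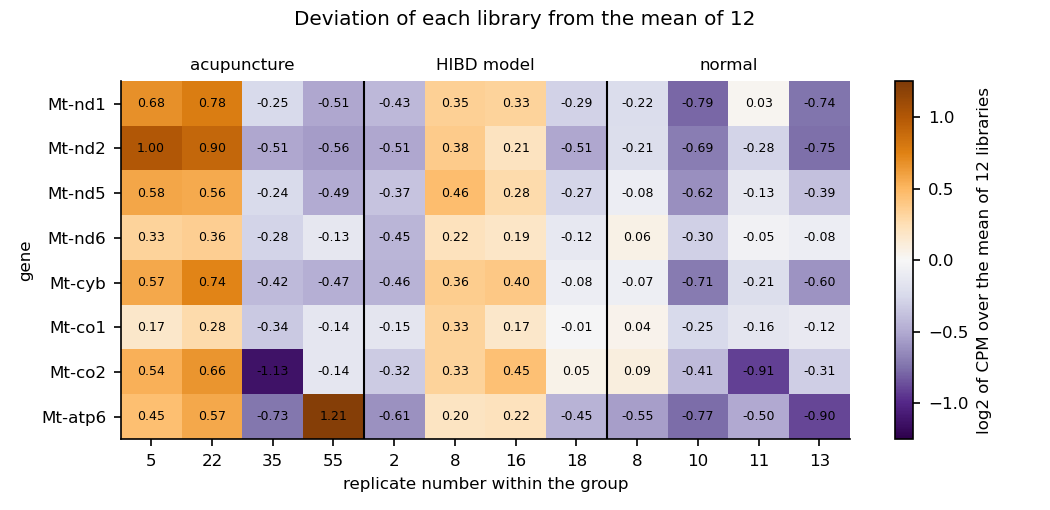
Log2 of TMM-scaled CPM over the gene's mean of 12 libraries (colour and printed value), by gene down the page and by library along the horizontal axis, with groups separated by black lines (n = 4 each). Acupuncture replicates 5 and 22 are above the mean for all 8 genes, normal replicate 10 is below it for all 8, and acupuncture replicate 55 is above it for Mt-atp6 alone (1.21).

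The members' spread within groups was wide beside that of genes with estimated counts in the same range or higher. Estimated counts weight each row by its factor, so those genes are not matched to the members in FPKM. The within-group SD of log2 CPM was 0.27 for Mt-nd6, 0.50 for Mt-nd1, 0.54 for Mt-atp6, 0.57 for Mt-co2 and 0.59 for Mt-nd2. Among 6379 Ensembl genes whose log2 CPM averaged 3.98 (the mean of Mt-atp6) or more, the median was 0.17 and the 90th percentile 0.41. All 8 abundant members lay above that median and 6 of 8 above that percentile. The acupuncture SD was the highest of the 3 groups for 8 of 8 abundant members, while over the 6379 genes the median SD was 0.14 in acupuncture, 0.20 in HIBD model and 0.13 in normal libraries. For Mt-nd6 it was 0.32 in acupuncture, close to 0.31 in HIBD model libraries. The members share libraries and vary together, so 8 of 8 is not 8 independent observations. How many of the 6379 genes had their highest SD in acupuncture was not counted.

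Mt-nd1, Mt-nd2, Mt-nd5 and Mt-cyb moved together most closely, with Pearson's r of 0.952 to 0.969 between their log2 CPM over 12 libraries in all 6 pairs. Adding Mt-nd6 and Mt-co1, r was 0.80 to 0.969 over 15 pairs. Mt-co2 had r of 0.63 to 0.899 with those 6 genes, and Mt-atp6 had 0.482 to 0.596 with the 7 others. These values describe the libraries, which all genes share with their depth and scaling, and carry no p. They mix differences between groups with those within groups.

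Ratios within a library, which depend on neither depth nor scaling, show where members parted. The FPKM ratio of Mt-nd1 to Mt-co1 was 0.135 and 0.135 in acupuncture replicates 5 and 22, and 0.101 and 0.0735 in replicates 35 and 55. It averaged 0.111 ± 0.0296 in acupuncture, 0.0897 ± 0.0136 in HIBD model and 0.0785 ± 0.0209 in normal libraries (SD, n = 4 each), and the groups overlapped. The ratio of Mt-co2 to Mt-co1 was 0.155 in acupuncture replicate 35 and 0.159 in normal replicate 11, and at least 0.235 in the other 10 libraries. The ratio of Mt-atp6 to Mt-co1 was 0.112 in acupuncture replicate 55 and at most 0.0536 in the others. Mt-nd6 kept the closest ratio to Mt-co1, at 0.0209 to 0.0285 over all 12 libraries. Its assembled row, which carries nearly all of its FPKM, may hold reads of genes on the other strand, and this was not tested.

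By the rule for likeness, the 5 genes outside the members with the highest Pearson's r to the summed CPM of the members over 12 libraries, among 14829 genes, were taken. They were ENSRNOG00000050051 (r = 0.922), ENSRNOG00000020475 (0.916), ENSRNOG00000017397 (0.911), ENSRNOG00000033261 (0.911) and ENSRNOG00000033615 (0.906). The last of these stood in the stretch of 32 table rows that holds all 13 member rows. The 2 genes of lowest r were ENSRNOG00000012271 (-0.92) and ENSRNOG00000048190 (-0.888). The files do not pair these identifiers with names. The sum was not scaled by member, so Mt-co1 weighed most in it, at 718 to 1143 TMM-scaled CPM. Mt-nd6 came next, at 126 to 220.3.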

How the data were processed

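Total RNA was extracted with Trizol and libraries were made with a NEBNext Ultra kit, per the labels' protocols. The submitters' processing notes name HTSeq 0.6.0 and Rnor_6.0 without a role. No source used here names the aligner or assembler. The authors deposited FPKM values per transcript row and library, and a table of estimated counts, which they call read counts, in the same row order. Rows were summed per gene. The unit of both was read from the values. Over 12003 rows above 2000 in every library, the count departed from the product of FPKM, row factor and library factor by a median of 0.00101%, and the median row factor was 26.8 times that of Mt-co1, so shares of the counts are not shares of reads.

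Counts were tested in R 4.3.3 with edgeR 4.0.16 (quasi-likelihood, TMM, filterByExpr by group, all 12 libraries, Benjamini-Hochberg over 27885 genes, threshold 0.05). The design was written for counts of reads and its test was kept for these estimated counts. Standard errors came from the F statistic. Alternatives were RLE factors, no scaling factors, totals without the members, no filter, at least 1 CPM in 4 libraries, DESeq2 1.42.0, limma-voom (limma 3.58.1), limma-trend on log2 FPKM with a pseudocount of 1 or 0.1, 2 groups alone, Ensembl genes alone, annotated rows alone, and each replicate left out.

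Members and lists were chosen with earlier results of these data known. All 10 members are named in order of complex, with the 5 most and 2 least like genes. The 7 lists of other respiratory chain and mitochondrial genes (87 symbols) and the cell type markers could not be matched to identifiers and were not analysed here.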

Additional observations from a re-analysis of the deposited data

Results flagged for a closer look

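Levels of the abundant members, FPKM ratios between members and the members' share of the library total were looked at in 66 groups of 4 libraries. In 3 of these groups 1 library lay apart from the other 3 by more than Dixon's 95% critical value for groups of that size. All 3 were groups of ratios, and no group of levels or shares was flagged. Chance flags about 1 in 20 groups, and the ratios share genes. In acupuncture replicate 55 the FPKM ratio of Mt-atp6 to Mt-nd1 was 1.53, against 0.331 to 0.398 in the other acupuncture libraries. In normal replicate 11 the FPKM ratio of Mt-co2 to Mt-nd1 was 1.48, against 3.51 to 3.80 in the other normal libraries, and that of Mt-nd5 to Mt-nd1 was 0.784, against 0.978 to 0.996. The 0.996, in normal replicate 13, includes 31.9 FPKM from an assembled row of Mt-nd5 listed at 0 in the 11 other libraries. Whether the flag on Mt-nd5 holds without that row was not tested.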

How the results depend on the processing

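Of 477 values of 24 log2 fold changes under the alternatives, 457 kept the direction and the side of the threshold, 19 turned direction and 1 passed. DESeq2 called 1 of 9 members, Mt-atp6 between acupuncture and normal (1.21), and 15.5% of all genes there. The cause was not tested. With limma-trend on log2 FPKM, at a pseudocount of 1 as of 0.1, Mt-nd6 was -0.049 between HIBD model and normal and Mt-co1 was -0.023 between acupuncture and normal. Leaving out 1 replicate gave -0.021 to 0.19 for Mt-nd6 between HIBD model and normal. Between acupuncture and HIBD model it gave -0.061 to 0.28 for Mt-nd5, -0.0070 to 0.22 for Mt-nd6, -0.12 to 0.28 for Mt-cyb, -0.18 to 0.018 for Mt-co1 and -0.25 to 0.24 for Mt-co2, and 3 to 8 abundant members higher. The share of the members was 3.68, 3.83 and 3.31% by FPKM in acupuncture, HIBD model and normal libraries, and 0.134, 0.14 and 0.115% of the estimated counts in the same groups with annotated rows alone. Over all genes, calls ranged from 0 to 3745 between HIBD model and normal, 0 to 185 between acupuncture and HIBD model, and 0 to 4312 between acupuncture and normal, beside 27, 0 and 23. Mt-nd6 could not be tested with annotated rows alone. No paired analysis was possible because the groups share fewer than 2 replicate numbers. Mt-nd6 rests on an assembled row, Mt-co3 and Mt-nd4 on very low values, and depth in reads is unknown.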

Other observations

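An identifier 2 rows before the first member row, ENSRNOG00000043866, which is no member and has no name in the files, was chosen after its values were seen. It had 296 FPKM in acupuncture replicate 35 and 324 FPKM in normal replicate 11, and 1337 to 3672 FPKM in the other 10 libraries. Those are the same 2 libraries in which the ratio of Mt-co2 to Mt-co1 was lowest. Over the 12 libraries, the ratio of Mt-nd6 to Mt-nd1 in FPKM averaged 0.257 ± 0.0686 in acupuncture, 0.265 ± 0.0271 in HIBD model and 0.347 ± 0.0721 in normal libraries (SD, n = 4 each), with overlapping groups. Here too Mt-nd6 rests on its assembled row.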
